A study of Caenorhabditis elegans with 6 samples.

Results

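The ionotropic glutamate receptor genes of Caenorhabditis elegans were followed in RNA from neuronal nuclei of L1 larvae, the first larval stage. The family was taken as the rows of the deposited table with the symbols glr-1 to glr-8, nmr-1 and nmr-2, and all 10 were found among its 41862 features. Neuronal nuclei had been immunoprecipitated through an INTACT tag, which labels the nuclei of chosen cells so that they can be pulled down. The labels name the driver of the tag only as UPN, and both groups carried the tag. The 3 control libraries came from strain OH16748 (otIs790), with wildtype given as genotype. The 3 mutant libraries came from strain OH17055, which the labels describe as null for 6 CUT homeobox genes, namely ceh-48, ceh-44, ceh-38 and the X-linked ceh-41, ceh-39 and ceh-21. Animals of both groups were synchronised L1 larvae grown on plates with NA22 bacteria. No ages in hours, pool sizes or input fractions were used here.

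Ionotropic glutamate receptors are ion channels that open when glutamate binds, and several subunits form one channel. Members of the AMPA and kainate type (glr genes in the worm) carry fast excitation, while NMDA-type channels (nmr genes) also need depolarisation and open more slowly. In the worm, glr-1, glr-2, nmr-1 and nmr-2 are known from the command interneurons that drive forward and backward movement. The subunits glr-3 and glr-6 are known from the RIA interneurons, and glr-7 and glr-8 from neurons of the pharynx.

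Depth was 15500882 to 20844986 reads per library, and every receptor gene had between 86 and 8799 reads in each library. RNA of 5 targeted genes was lower in every mutant library than in any control. RNA of the other, ceh-44, was higher there, at 16830 ± 1927 normalized counts against 9563 ± 1645 (SD, n = 3 each), so the label was not matched by a lower RNA level for this gene. Mutant therefore stands throughout for the libraries labelled as such. All 30 genes of a pan-neuronal list were detected in all libraries, summing to 846348 to 1063677 normalized counts in controls and 418534 to 766386 in mutants. Markers of other cells were present too. Genes of body wall muscle summed to 191843 to 225635 in controls and 258762 to 301998 in mutants, with 2 of 10, ttn-1 and unc-89, higher past the threshold, 6 of 10 below 0 in their difference and a median log2 difference of −0.08. Those of pharyngeal muscle summed to 28542 to 43689 in controls and 56158 to 78025 in mutants, with 3 of 6 higher and a median of 0.70. Germline markers were low, at 350 to 443 in controls and 732 to 1039 in mutants, with 1 of 5 tested higher and a median of 0.92. Group ranges overlapped for the sums of intestine (20462 to 35148 over all libraries), epidermis (1252 to 3572) and glia (2130 to 2981). Of these lists, 1 epidermis gene passed, dpy-5, which was lower, while 6 of 9 tested epidermis genes were above 0 in their difference. Median log2 differences were −0.07 for intestine, 0.56 for epidermis and −0.025 for glia. No marker of any list was at 0 in all libraries, and the part of these differences in the results below was not tested.

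One receptor gene, glr-6, fell in the mutant, to 45.5% of its control level. The other 9 did not pass the threshold in the test with group as the sole factor. When same-numbered libraries were compared with each other, nmr-1 was also higher, and nmr-2 and glr-4 were lower, past the threshold. With that pairing the NMDA-type subunit genes nmr-1 and nmr-2 differed in opposite directions, although relative to the pan-neuronal genes the difference of nmr-2 was −0.02 (limma Benjamini-Hochberg adjusted p 0.914 with the block). The AMPA-type subunits glr-1 and glr-2 passed in neither test. Relative to the pan-neuronal genes without the block, glr-4 was at 0.135 and glr-6 at −0.595 (limma Benjamini-Hochberg adjusted p 0.598 and 0.0718). Neither passed the threshold in that fit, while glr-1, glr-3, glr-5 and nmr-1 were higher past it. Over all genes, 15.9% were higher and 2.26% lower in it.

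In numbers, 1 of the 10 receptor genes was lower and 0 were higher by limma at a Benjamini-Hochberg adjusted p of 0.05. Across all 17900 genes tested, 10.5% were lower and 7.56% were higher past that threshold, 18.1% in all. At an unadjusted p under 0.05, 1 receptor gene was lower and 1 higher, where 34.8% of all genes passed in either direction. The quasi-likelihood test of edgeR called 1 lower and 0 higher, where 9.65% and 8.84% of all genes were called, and DESeq2 called 1 lower and 1 higher, where 12.4% and 11.2% were. The count of 1 lower gene in 10 is thus close to the share over all genes. With the replicate number as a block, limma called 3 lower and 1 higher, where 15.2% and 11.1% of all genes were called, 26.3% together. The median log2 difference of the 10 genes, mutant minus control, was 0.09, beside −0.02 over all genes tested and −0.54 for the pan-neuronal list. All values are bulk values of a preparation of nuclei, in which fewer nuclei of a type and less RNA per nucleus cannot be told apart.

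**Figure D1:**
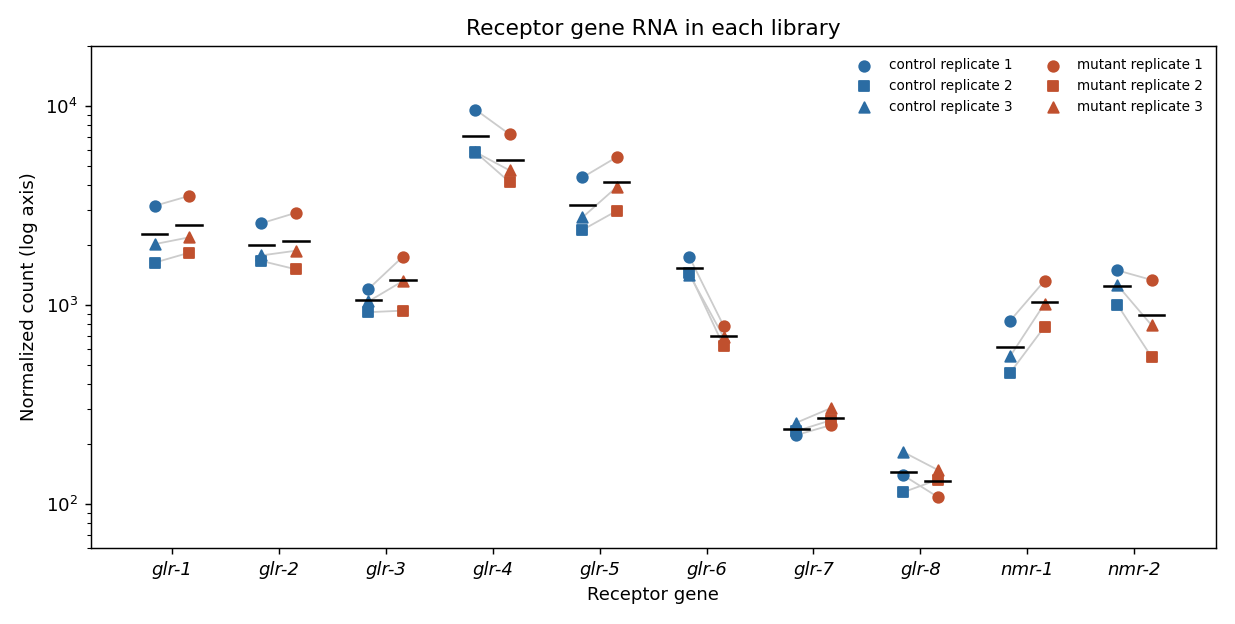
Normalized counts (log axis) of the 10 receptor genes in each of the 3 control (blue) and 3 mutant (red) libraries. Marker shapes give the replicate number, grey lines join same-numbered libraries and black bars are group means. The groups are apart for glr-6 alone, and libraries numbered 1 lie at the top of both groups for most genes.

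The AMPA-type subunit gene glr-1, needed for responses to nose touch, lies on chromosome III at 8584163 to 8588642 (WBcel235, Ensembl release 115, minus strand). It measured 3146, 1631 and 2020 normalized counts in control replicates 1, 2 and 3, and 3525, 1828 and 2184 in mutant replicates 1, 2 and 3. Each mutant library was above the control of the same number, but the groups overlapped widely. The log2 difference was 0.15, with a 95% interval from −0.50 to 0.80 (limma Benjamini-Hochberg adjusted p 0.748). Its sign turned when control replicate 2 or mutant replicate 1 was left out, to −0.06 and −0.13.

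A close relative, glr-2 on chromosome III at 7138640 to 7144959, encodes a subunit that forms channels together with GLR-1. Its counts were 2573, 1664 and 1774 in controls and 2902, 1511 and 1872 in mutants. The groups overlapped, and 2 of 3 same-numbered pairs were higher. The difference was 0.04, with a 95% interval from −0.54 to 0.62 (limma Benjamini-Hochberg adjusted p 0.932). It was −0.08, −0.04 and −0.22 without control replicate 2, control replicate 3 and mutant replicate 1.

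Among the other non-NMDA subunits, glr-6 on the X chromosome at 6836210 to 6840720 stood apart. Its counts were 1740, 1451 and 1422 in controls and 785, 621 and 690 in mutants. Every mutant library was far below every control library, and the groups did not overlap. This was so for 1 of the 10 receptor genes, while 20.4% of all genes tested had mutant libraries wholly below the controls, 19.5% had them wholly above, and 40% did not overlap in all. Means were 1538 ± 176 normalized counts in the controls and 699 ± 82.3 in the mutants (SD, n = 3 each). On the log2 scale the group means differed by −1.14, with SE 0.17 (limma Benjamini-Hochberg adjusted p 0.00246). Same-numbered pairs gave −1.15, −1.22 and −1.04. The adjusted p with the replicate block was 0.00112. Relative to the mean of the 30 pan-neuronal genes the difference was −0.59, and the adjusted p of 0.0718 no longer passed. That list was itself lower, with a median log2 difference of −0.54. Centring on it left 2.26% of all genes called lower, against 10.5% without it, and raised the median gene to 0.52. The adjacent gene F41B4.3 lies 95 bp from glr-6 on the same strand. It measured 92.6, 113 and 69.9 in controls and 86.0, 169 and 101 in mutants, with overlapping groups.

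The second gene known from RIA, glr-3 on chromosome I at 7117808 to 7121545, encodes a receptor that also serves cold sensing in the worm. Its counts were 1203, 920 and 1042 in controls and 1746, 936 and 1318 in mutants. All 3 same-numbered pairs were higher, the second by very little, and the groups overlapped. The difference was 0.30, with a 95% interval from −0.22 to 0.82 (limma Benjamini-Hochberg adjusted p 0.380). With the block the adjusted p was 0.177. The difference was 0.08 without mutant replicate 1 and 0.53 without mutant replicate 2.

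The most abundant receptor RNA, glr-4 on chromosome II at 7785100 to 7794322, is a non-NMDA subunit. It measured 9582, 5854 and 5860 in controls and 7193, 4134 and 4738 in mutants. Each mutant library was below its same-numbered control, although mutant replicate 1 exceeded control replicates 2 and 3. The difference was −0.41, with a 95% interval from −0.99 to 0.18 (limma Benjamini-Hochberg adjusted p 0.293), and it turned to 0.14 when libraries were centred on the pan-neuronal genes. With the replicate block the interval was −0.70 to −0.12 and the adjusted p 0.0463, just past the threshold. With group as the sole factor, the difference was −0.17 without control replicate 1 and −0.24 without mutant replicate 2, neither past the threshold.

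The subunit gene glr-5 on chromosome V at 8716495 to 8720516 measured 4369, 2381 and 2752 in controls and 5526, 2969 and 3908 in mutants. All 3 pairs were higher, by 0.34, 0.32 and 0.51 on the log2 scale, and the groups overlapped. The difference was 0.39, with a 95% interval from −0.23 to 1.004 (limma Benjamini-Hochberg adjusted p 0.345). The block gave an adjusted p of 0.0560, still short of the threshold. Leaving out 1 library moved the difference between 0.16, without mutant replicate 1, and 0.64, without control replicate 1.

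The receptor genes known from pharyngeal neurons were the lowest of the family. Counts of glr-7, on the X chromosome at 2413909 to 2419877, were 222, 233 and 256 in controls and 249, 263 and 303 in mutants. The difference was 0.19, with a 95% interval from −0.22 to 0.61 (limma Benjamini-Hochberg adjusted p 0.487). For glr-8, on the X chromosome at 6505980 to 6509957, counts were 139, 114.7 and 183 in controls and 109, 132 and 149 in mutants. Its difference was −0.15, with a 95% interval from −0.70 to 0.41 (limma Benjamini-Hochberg adjusted p 0.703), and turned to 0.03 under scaling to equal totals, to 0.39 under pan-neuronal centring and to 0.03 without control replicate 3. The groups overlapped for both genes, whose levels stood beside a higher sum of pharyngeal muscle markers in every mutant library. Of the 3 X-linked receptor genes, glr-6 was thus the one that passed. It lies 4.98 Mb from the nearest targeted CUT gene on that chromosome, ceh-39, while glr-8 and glr-7 lie 4.65 and 0.56 Mb from ceh-39. On chromosome II, glr-4 and nmr-1 lie 0.83 and 1.5 Mb from ceh-38. On chromosome III, glr-1 and glr-2 lie 6.04 and 4.6 Mb from ceh-44. Any part of distance in the differences was not tested.

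The NMDA-type subunit gene nmr-1, which encodes the obligatory GluN1-like subunit, lies on chromosome II at 5440238 to 5446606. Its counts were 835, 458 and 554 in controls and 1323, 778 and 1015 in mutants. Each mutant library exceeded its same-numbered control, and only control replicate 1 lay above the lowest mutant library. Its log2 difference of 0.77, with a 95% interval from 0.18 to 1.35, had a limma Benjamini-Hochberg adjusted p of 0.0685. The pairs gave 0.66, 0.76 and 0.87, and with the replicate block the adjusted p was 0.00709. It also passed without control replicate 1 or without mutant replicate 2, with differences of 1.01 and 0.96 and adjusted p of 0.0446 and 0.0276. It did not pass without control replicate 2 (0.58), control replicate 3 (0.71), mutant replicate 1 (0.57) or mutant replicate 3 (0.77), with adjusted p of 0.216, 0.168, 0.139 and 0.156.

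The GluN2-like subunit gene nmr-2, on chromosome V at 15006341 to 15011660, measured 1493, 1004 and 1260 in controls and 1336, 549 and 792 in mutants. Each mutant library was below its same-numbered control, and mutant replicate 1 lay within the control range. The difference was −0.57, with a 95% interval from −1.23 to 0.10 (limma Benjamini-Hochberg adjusted p 0.205). With the replicate block the interval was −0.96 to −0.18 and the adjusted p 0.0398. Without mutant replicate 1 the difference was −0.91 with an adjusted p of 0.0241, and without mutant replicate 2 it was −0.27 with an adjusted p of 0.491. Over all genes, 2522 were called lower without mutant replicate 1, against 1886 with all libraries. For nmr-2 the pan-neuronal scale was also tried. Relative to the pan-neuronal genes it was −0.02, with an adjusted p of 0.946 and of 0.914 with the block added. The gene hrde-2, which overlaps an exon of nmr-2 on the opposite strand, measured 92.2 to 123 in controls and 48.1 to 54.4 in mutants, and the authors' handling of reads shared by overlapping genes is not given in the sources used here.

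**Figure D2:**
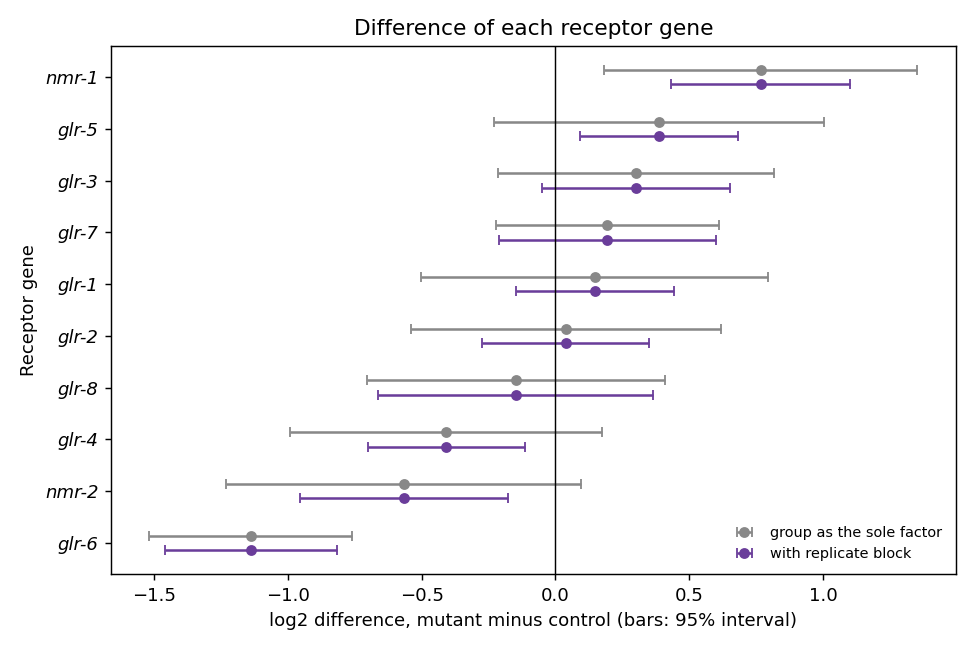
Log2 difference of each receptor gene, mutant minus control, with 95% intervals from limma with group as the sole factor (grey) and with the replicate block (purple). The interval of glr-6 lies below 0 in both fits. That of nmr-1 lies above 0 in both, although its adjusted p of 0.0685 in the first fit did not pass.

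Most receptor genes rose and fell together between replicates. How many of all genes did so was not counted, so this order is not shown to be particular to the family. The replicate block raised calls over all genes as well, to 26.3% from 18.1%. Its link to this order was not tested. Control replicate 1 was the highest control for 8 of 10 genes, and mutant replicate 1 was the highest mutant for 8 of 10. Replicate 2 was the lowest of its group for 8 of 10 genes in controls and for 8 of 10 in mutants. The exceptions at the top were glr-7 and glr-8 in both groups. In all 3 same-numbered pairs, 5 receptor genes were higher and 3 lower in the mutant, where 28.4% and 30.8% of all genes tested were. The pan-neuronal list had the same order, with mean log2 values of 13.70, 13.34 and 13.45 in control replicates 1, 2 and 3 and 13.33, 12.60 and 12.94 in mutant replicates 1, 2 and 3. The mean log2 values of the 10 receptor genes were 10.45, 9.90 and 10.12 in controls and 10.44, 9.79 and 10.10 in mutants, so their group ranges overlapped.

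A ratio of receptor genes taken within a library is free of the depth and scaling of that library. Ratios for 3 pairs with shared known sites of expression were formed after the values had been seen. The ratio of glr-6 to glr-3 was 1.45, 1.58 and 1.36 in control replicates 1, 2 and 3 and 0.450, 0.663 and 0.524 in mutants. All mutant ratios were below all control ratios, with a log2 difference of −1.44. The ratio of nmr-1 to nmr-2 was 0.559, 0.456 and 0.440 in controls and 0.991, 1.42 and 1.28 in mutants. Here all mutant ratios were above all control ratios, with a log2 difference of 1.33. The ratio of glr-1 to glr-2 was 1.22, 0.981 and 1.14 in controls and 1.22, 1.21 and 1.17 in mutants, with overlapping groups and a log2 difference of 0.11. The exact two-sided permutation p was 0.1, 0.1 and 0.4, and 0.15, 0.15 and 0.4 after Benjamini-Hochberg adjustment over the 3 ratios, where 0.1 is the smallest p that 3 against 3 libraries allow. The design could thus not take any of these ratios past 0.05, and they are given as a description.

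**Figure D3:**
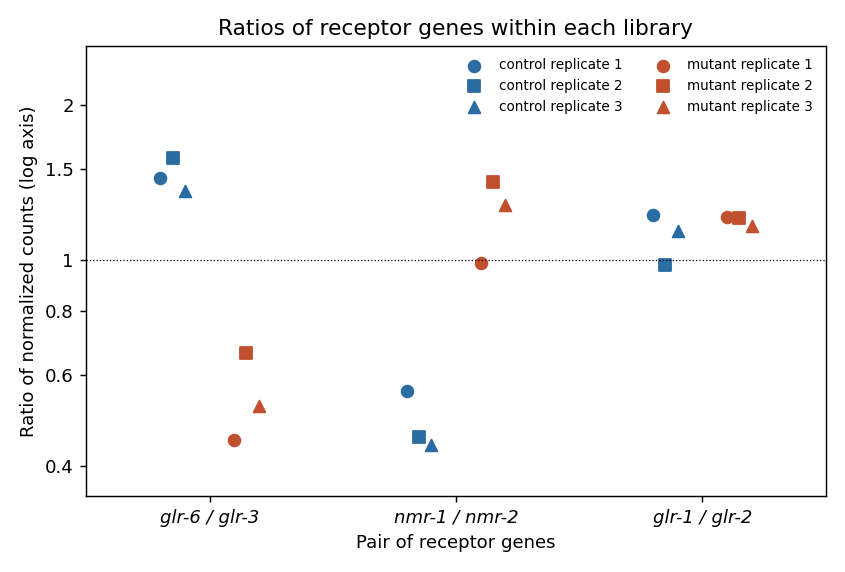
Ratio of normalized counts of receptor gene pairs within each library (log axis), controls in blue and mutants in red, with marker shapes for replicate numbers. The ratio of glr-6 to glr-3 spans 1.36 to 1.58 in controls and 0.450 to 0.663 in mutants, and that of nmr-1 to nmr-2 spans 0.440 to 0.559 and 0.991 to 1.42.

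To compare levels between receptor genes, normalized counts were divided by the length of annotated exons. In controls the order from high to low was glr-4, glr-5, glr-1, glr-2, glr-6, glr-3, nmr-2, nmr-1, glr-7 and glr-8. The level per kb of exon was 2300 ± 697 for glr-4 and 71.6 ± 16.9 for glr-8 (SD, n = 3 each). Neighbours in that order with overlapping library ranges were glr-5 and glr-1, glr-1 and glr-2, glr-6 and glr-3, glr-3 and nmr-2, and glr-7 and glr-8. In mutants glr-6 moved from rank 5 to rank 8, at 211 ± 24.8 per kb against 464 ± 53.1 in controls. In the same order nmr-1, at 329 ± 86.7 per kb in mutants and 195 ± 62.1 in controls, moved from rank 8 to rank 6. Library ranges of mutant neighbours overlapped except between glr-6 and glr-7 and between glr-7 and glr-8.

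Genes that assemble, traffic or supply these receptors were compared from 5 lists of 41 genes, of which 40 were in the table and tested. One, the trafficking gene rab-6.2, was lower past the threshold by limma and 0 were higher, while 6 were lower and 0 higher at an unadjusted p under 0.05. By edgeR 1 was lower and 0 higher, and by DESeq2 3 were lower and 0 higher. With the replicate block 8 were lower and 0 higher. Over all genes tested, 10.5% were lower by limma, 34.8% passed unadjusted in either direction and 15.2% were lower with the block, beside 9.65% lower by edgeR and 12.4% by DESeq2. The median log2 difference of the 40 genes was −0.32.

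The auxiliary subunits, which set the gating and surface delivery of glutamate receptors, were represented by 5 genes with a median difference of −0.42. The CUB-domain protein gene sol-1 measured 4514, 3111 and 3414 in controls and 3914, 1881 and 2532 in mutants, lower in each pair with overlapping groups. Its difference was −0.45 (limma Benjamini-Hochberg adjusted p 0.248, and 0.0488 with the replicate block). The Neto-like gene sol-2 differed by −0.45 (limma Benjamini-Hochberg adjusted p 0.142, and 0.0519 with the block). The stargazin-like genes stg-1 and stg-2 differed by −0.03 and −0.41, and the cornichon gene cni-1 by −0.42, none past the threshold in either fit. Without mutant replicate 1, sol-1 and sol-2 passed, at −0.73 and −0.63 (limma Benjamini-Hochberg adjusted p 0.0369 and 0.0358). Leaving out that library raised the calls over all genes to 4117 from 3239, with 2522 lower, which holds for each such pass below. Neither passed when any other single library was left out, with adjusted p of 0.211 to 0.573. Relative to the pan-neuronal genes, sol-1 and sol-2 turned to 0.089 and 0.095 (adjusted p 0.739 and 0.740). The symbol nrap-1, of an NMDA receptor auxiliary protein, was not matched.

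Of 15 trafficking genes, with a median difference of −0.13, rab-6.2 fell. It encodes a small GTPase that recycles GLR-1 in worm neurons. Its counts were 413, 340 and 447 in controls and 205, 178 and 214 in mutants, without overlap. Its log2 difference of −0.999, with SE 0.19, had a limma Benjamini-Hochberg adjusted p of 0.00800. Relative to the pan-neuronal genes it was −0.46, with an adjusted p of 0.234. The kinase gene unc-43 (CaMKII) differed by −0.78 and the PDZ-domain scaffold gene lin-10 by −0.57. Their limma Benjamini-Hochberg adjusted p values were 0.0613 and 0.0640, and 0.0105 and 0.0284 with the replicate block. Groups did not overlap for either gene, as for 40% of all genes tested, and both also passed by DESeq2 and without mutant replicate 1. Neither passed when any other single library was left out, with limma adjusted p of 0.110 to 0.178. Relative to the pan-neuronal genes, unc-43 and lin-10 differed by −0.24 and −0.03 (adjusted p 0.212 and 0.910). Groups were also apart for vps-35, which was higher, at 1057 to 1100 in controls and 1336 to 1378 in mutants. Its difference was 0.32 (limma Benjamini-Hochberg adjusted p 0.149).

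Among 10 genes of glutamate release, uptake and metabotropic reception, 0 passed by limma, edgeR or DESeq2, nor did any at an unadjusted p under 0.05. The vesicular glutamate transporter gene eat-4 measured 4152, 3550 and 3413 in controls and 3489, 2404 and 2819 in mutants, a difference of −0.36 (limma Benjamini-Hochberg adjusted p 0.188). The metabotropic receptor genes mgl-2 and mgl-3 differed by −0.49 and −0.51, and passed with the replicate block (limma Benjamini-Hochberg adjusted p 0.0386 and 0.0414) and without mutant replicate 1 (0.0300 and 0.0253). Neither passed when any other single library was left out, with adjusted p of 0.162 to 0.565. Relative to the pan-neuronal genes, mgl-2 and mgl-3 turned to 0.06 and 0.03 (adjusted p 0.836 and 0.914). The 6 glutamate-gated chloride channel genes, the inhibitory counterpart of the family, had a median difference of −0.14 and 0 passed by any of these tools, with 0 at an unadjusted p under 0.05.

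Transcription factors known to act in command interneurons were examined as well. The homeobox gene unc-42 differed by −0.36, the nuclear receptor gene fax-1 by −0.21, the ARID gene cfi-1 by −0.60 and the COE-type gene unc-3 by −0.82. Their limma Benjamini-Hochberg adjusted p values were 0.368, 0.60, 0.115 and 0.0667. With the replicate block cfi-1 and unc-3 passed, at 0.0256 and 0.00864, and so did they without mutant replicate 1, at 0.0147 and 0.0128. Neither passed when any other single library was left out, with limma adjusted p of 0.102 to 0.308. Relative to the pan-neuronal genes, cfi-1 and unc-3 differed by −0.05 and −0.28 (adjusted p 0.866 and 0.364). Of 5 measured markers of interneurons that use the receptors, tdc-1, the tyrosine decarboxylase gene of RIM and RIC neurons, fell by 0.75 on the log2 scale (limma Benjamini-Hochberg adjusted p 0.0270). Relative to the pan-neuronal genes the tdc-1 difference was −0.21 with an adjusted p of 0.448. It also fell short of the threshold without any one of the controls or without mutant replicate 3, with adjusted p of 0.0650 to 0.106. A limma fit with no variance trend gave 0.0783, and centring on the median gene gave 0.0551. The AVA marker rig-3 differed by 0.06 (95% interval −0.46 to 0.57) and the peptide gene flp-18 by −0.07 (95% interval −0.55 to 0.40). Differences of cex-1 and sra-11 were −0.24 (95% interval −0.74 to 0.27) and 0.06 (95% interval −0.44 to 0.55), with overlapping groups. The symbol opt-3 was not matched.

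**Figure D4:**
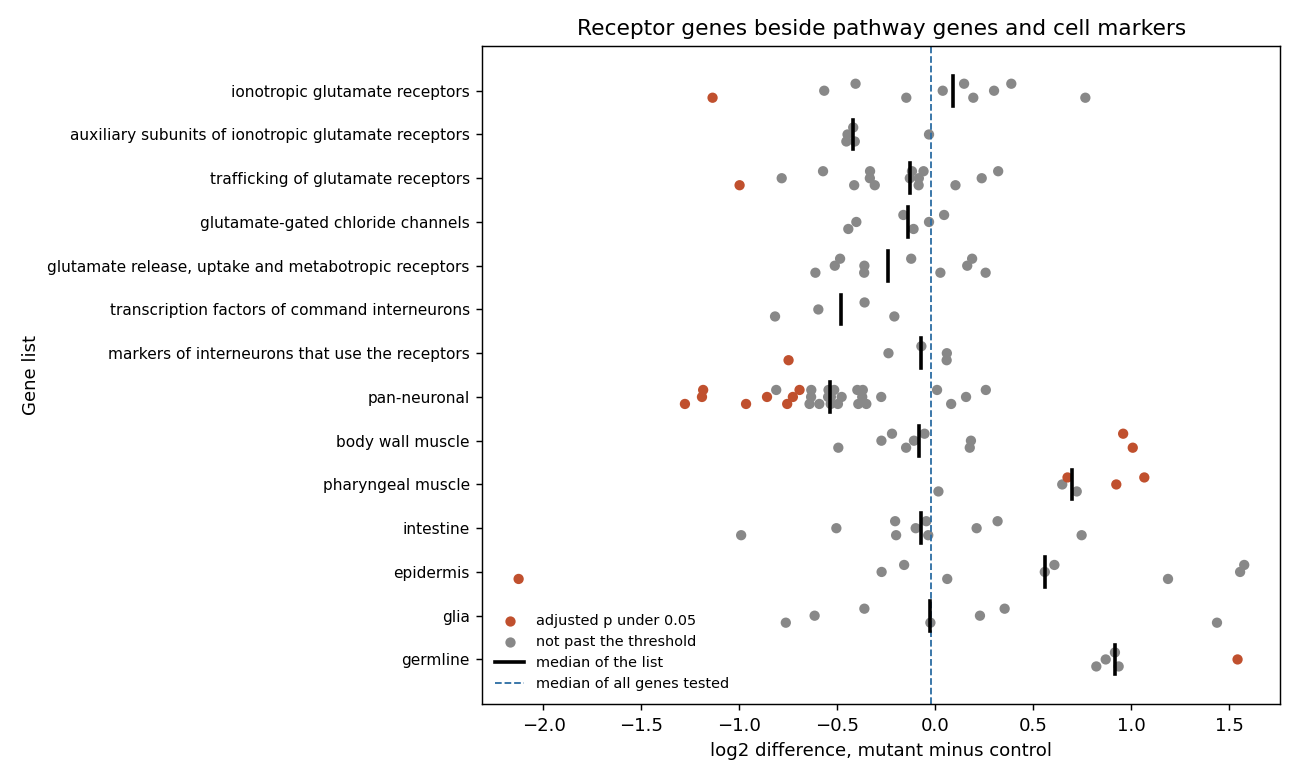
Log2 difference of each tested gene, mutant minus control, for the receptor genes and each gene list. Red points passed an adjusted p of 0.05, black bars are list medians and the dashed line is the median of all genes tested. The receptor genes have a median of 0.09 and spread from −1.14 to 0.77, and the pan-neuronal genes have a median of −0.54.

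Relative to the pan-neuronal genes, the receptor genes read differently. The pan-neuronal list was itself lower, with 8 of its 30 genes called lower and 0 higher by limma, where 10.5% and 7.56% of all genes were. With the replicate block 17 of the 30 were called lower and 0 higher, where 15.2% and 11.1% of all genes were. A fall of that list and a rise of a receptor gene cannot be told apart by centring. Centring each library on the mean of the list raised the median of all genes tested to 0.52 from −0.02. In that fit glr-1, glr-3, glr-5 and nmr-1 were higher past the threshold and 0 receptor genes were lower, where 15.9% and 2.26% of all genes were. Their differences were 0.69, 0.84, 0.93 and 1.31 (limma Benjamini-Hochberg adjusted p 0.0486, 0.0217, 0.0152 and 0.00801). At an unadjusted p under 0.05, 6 receptor genes were higher and 1 lower in it. With the replicate block added, 6 receptor genes were higher and glr-6 was lower, beside 33.8% and 4.79% of all genes.

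The receptor genes, listed genes and targeted genes were left out of a comparison with the mean of the 10 receptor genes. Among the other 17762 genes tested, those whose log2 values over the 6 libraries most resembled it were kal-1, vab-1 and vha-13. Their Pearson r was 0.997, 0.995 and 0.995. With 6 points that share depth and scaling, 134 of these 17762 genes reached 0.95. The anosmin gene kal-1 differed by −0.05, the ephrin receptor gene vab-1 by −0.005 and the proton pump gene vha-13 by −0.01.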

How the data were processed

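RNA was sequenced from 6 libraries of immunoprecipitated neuronal nuclei, 3 control and 3 mutant, grouped by their titles. The deposited signal is gene counts that the authors divided by 1 size factor per library, and STAR, featureCounts and DESeq2 are named without versions, per the submitters' processing notes. The genome build, annotation, strand setting and treatment of shared reads are not given in the sources used here. Values were whole multiples of 1 step per library, so whole reads were recovered for 100% of values (tolerance 0.01 reads). A floor of 3 reads equals 2.44 to 3.79 normalized counts and covers counting error only. No replicate library repeated another, since reads of replicate pairs differed at 19.8 to 82.4 chi-square units per degree of freedom. The labels do not say whether replicates were separate cultures, so p-values measure the spread between these libraries, which may be technical.

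Normalized counts were transformed as log2 of the value plus 1 and compared between groups by limma 3.58.1 (R 4.3.3), using a mean-variance trend and no covariate. Benjamini-Hochberg adjustment ran over all 17900 genes with a mean of at least 10, which all 10 receptor genes passed, and the threshold was 0.05. Log2 differences on this scale understate changes of low genes. Recovered reads were tested with edgeR 4.0.16 and DESeq2 1.42.0. The titles number replicates 1, 2 and 3 in both groups. Libraries with the same number deviated from their groups' means together, with correlations of 0.254, 0.196 and 0.146 across genes, all above 0.1. Libraries with different numbers gave −0.201 to 0.00493. Deviations of 3 libraries from their mean sum to 0, so these correlations are not independent. On this basis the numbers were taken to pair the libraries. The replicate block is given where it changes a call of a receptor or pathway gene, and for the pan-neuronal count. Counts called in the lists of other cells are from the fit with group as the sole factor.

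The named genes were the 10 receptor genes, pathway genes past the threshold and the targeted genes. They also included sol-1, sol-2, stg-1, stg-2, nrap-1, eat-4, the 4 transcription factors and the 3 genes outside the lists most like the family mean. Other genes named were chosen after their values were seen. Members and lists were chosen with earlier results of these data known, and the pan-neuronal list was taken from that earlier work. Gene positions and exon lengths are from the Ensembl release 115 annotation of WBcel235, in which 96% of the table's symbols matched. Distances to CUT genes use RefSeq positions of the same assembly.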

Additional observations from a re-analysis of the deposited data

How the results depend on the processing

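Of the receptor genes, glr-6 kept its direction in every alternative run and its call in all but pan-neuronal centring (−0.59), with −1.22 to −1.05 when 1 library was left out. The replicate block brought past the threshold glr-4 (−0.41), nmr-1 (0.77) and nmr-2 (−0.57). Also past it was nmr-1 under equal totals (0.94), equal totals without the 20 highest genes (0.87), DESeq2 (0.78) and pan-neuronal centring (1.31). Pan-neuronal centring gave glr-1 0.69, glr-3 0.84 and glr-5 0.93 past the threshold, turned glr-4 to 0.14 and glr-8 to 0.39, and left nmr-2 at −0.02. Centring and block together, chosen after seeing the data, added glr-2 (0.58) and glr-7 (0.74). Equal totals turned glr-8 to 0.027. Without both libraries numbered 1, also chosen after seeing the data, glr-2 was −0.03. Leaving out 1 library gave −0.13 to 0.41 for glr-1, −0.22 to 0.25 for glr-2, 0.08 to 0.53 for glr-3, −0.64 to −0.17 for glr-4, 0.16 to 0.64 for glr-5, 0.11 to 0.26 for glr-7, −0.31 to 0.027 for glr-8, 0.57 to 1.01 for nmr-1 and −0.91 to −0.27 for nmr-2. The cause was not tested.

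Receptor genes called lower numbered 1, 3 with the replicate block, 0 under pan-neuronal centring and 1 to 2 with 1 library left out. Of all genes tested, 10.5% were called lower, 15.2% with the block and 2.26% under pan-neuronal centring. Those called higher numbered 0, 1 with the block, equal totals, equal totals without the 20 highest genes or DESeq2, 4 under pan-neuronal centring, 6 with the block added to it, and 0 to 1 with 1 library left out. Of all genes, 7.56% were called higher, 11.1% with the block and 11.2% with DESeq2. Pan-neuronal centring called 15.9% higher, and 33.8% with the block added. Equal totals called 2118 of 17900 genes higher, and 1723 without the 20 highest genes. Pathway genes called lower numbered 1, 8 with the block, 3 with DESeq2, 0 under pan-neuronal centring with or without the block, and 1 to 10 with 1 library left out (10 without mutant replicate 1). Without mutant replicate 1, 2522 of all 17986 genes tested were called lower. DESeq2 called 12.4% of all genes lower, and pan-neuronal centring with the block 4.79%. Those called higher numbered 0, 1 under equal totals, 3 under pan-neuronal centring and 11 with the block added.

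Over all genes, 3239 were called (1353 higher, 1886 lower). At an adjusted p of 0.01 the count was 1107 (397 higher, 710 lower). Leaving out 1 library gave 1506 to 4117 (536 to 1595 higher, 864 to 2522 lower). Omitting both libraries numbered 1 gave 2049 (688 higher). The block with pan-neuronal centring gave 6902 (6045 higher, 857 lower). Lower calls made up 58.2%, against 39.1% under equal totals (2118 higher), 47.6% without the 20 highest genes and 12.5% under pan-neuronal centring (2846 higher, 405 lower). Equal totals moved the median gene to 0.15 from −0.02. Pseudocounts of 0.5 and 5, no filter and a minimum mean of 50 changed no call of a receptor gene.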

Other observations

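RefSeq names 2 further receptor genes, glr-9 and glr-10, which stand in the table as W02A2.5 and C08B6.5. They were looked up after the values of the family had been seen. Counts of W02A2.5 were 37.0, 22.9 and 45.6 in control replicates 1, 2 and 3 and 41.7, 45.5 and 54.9 in mutants. The difference was 0.46, with a 95% interval from −0.31 to 1.24 (limma Benjamini-Hochberg adjusted p 0.369). Counts of C08B6.5 were 33.8, 41.7 and 60.2 in controls and 11.4, 43.9 and 71.8 in mutants, from 9 to 85 reads per library. Its difference was −0.39, with a 95% interval from −1.70 to 0.92 (limma Benjamini-Hochberg adjusted p 0.667). Both genes lay below every one of the 10 receptor genes in every library, and their groups overlapped.

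Features that share exon sequence with a receptor gene held few reads apart from hrde-2. The noncoding feature B0280.22, opposite an exon of glr-2, measured 6.53, 6.26 and 4.85 in controls and 8.85, 96.7 and 25.3 in mutants, with mutant replicate 2 far above the rest. The gene F07F6.1, which overlaps an exon of nmr-1 on the opposite strand, measured 0.97 to 5.06 in all libraries.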
